A study of Mus musculus with 12 samples.

Results

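The 44 genes described here encode the enzymes and regulators that shorten poly(A) tails, remove the cap and degrade messenger RNA in the mouse. They were taken as a named list of gene symbols, matched through Ensembl identifiers to the deposited count table, and all 44 were found among the 52550 genes listed. RNA bound by the m6A readers Ythdf1 and Ythdf2 was recovered by immunoprecipitation (IP) and sequenced (RIP-seq) in wild-type C57BL/6 mice. The tissues were the cortex of embryos at day 12.5 (E12.5) and the retina of newborn mice at day 0 (P0), and each had 3 groups of 2 replicates: an IP with an antibody to Ythdf1, an IP with an antibody to Ythdf2, and input RNA taken with no antibody, which gave 12 libraries. The input was the background for each IP, and an IP with an unrelated antibody was not analysed here. The labels do not say whether replicates came from separate animals or pools, so p-values measure the spread between these samples, which may be technical. Tissue and age differ together, and in such bulk samples fewer cells of a type and less RNA per cell cannot be told apart.

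Most mRNAs are degraded in a fixed order. Deadenylases, above all the CCR4-NOT complex built on the scaffold Cnot1, shorten the poly(A) tail, the Dcp2 decapping complex removes the cap, and Xrn1 degrades the body from the 5′ end while the exosome degrades from the 3′ end. Nonsense-mediated decay (NMD) feeds transcripts with early stop codons into the same machinery. N6-methyladenosine (m6A) is read in the cytoplasm by the YTHDF proteins, and Ythdf2 is known for recruiting CCR4-NOT through Cnot1. The values below concern the reverse question, which mRNAs of this machinery were themselves recovered with the readers.

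GGACT is the commonest sequence form of the m6A consensus. It occurs in the chosen transcript of 43 of the 44 genes (97.7%; Cnot3 has none) and of 92.5% of the 12400 protein-coding genes tested in the retina, counted on the transcript strand, so its presence sets few genes apart. The 7 genes called with both antibodies in the retina and in the same direction are each shown by 1 GGACT, in capitals. The 29 bases are from GENCODE M21 transcripts on GRCm38. Among the GGACT whose 29 bases lie in 1 exon, the one nearest the end of the coding sequence was taken. Cnot1 and Edc4 were higher in both IPs than in the input, and the other 5 were lower.
Cnot1: tgctctacgtagGGACTcaggctatcgca
Edc4: tctcccctgatgGGACTgtcctggctacc
Cnot4: tagtaatttcttGGACTtgaatctcccgc
Patl1: tagtataccaaaGGACTccttcccgcttt
Exosc1: ctaccccaaagaGGACTtcagcacttcag
Exosc8: agctaaacttcaGGACTgcatgagtcgag
Upf3b: agacagggaccgGGACTatgagagagatc
The Cnot1 window is at chr8:95723385-95723413 on the minus strand, in the coding part of exon 46 of 49. The Edc4 window is at chr8:105886769-105886797 on the plus strand, in the coding part of exon 8 of 29. It lies 3247 bases from the end of the coding sequence. The Cnot4 window is at chr6:35051101-35051129 on the minus strand, in the coding part of exon 10 of 11. Those of Patl1 (chr19:11943694-11943722, plus strand, exon 19 of 19) and Exosc1 (chr19:41923947-41923975, minus strand, exon 8 of 8) lie after the stop codon, in the 3′ UTR. Those of Exosc8 (chr3:54728846-54728874, minus strand, exon 11 of 11) and Upf3b (chrX:37095764-37095792, minus strand, exon 9 of 10) are coding. The Cnot1 transcript holds 11 GGACT and that of Edc4 5, against 3 each for Cnot4 and Patl1, 2 for Upf3b and 1 each for Exosc1 and Exosc8. A match is a description of the letters: no map of m6A was used, and none of these bases was shown to be methylated.

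Library totals ran from 19530226 to 40515980 counts, of which protein-coding genes took 1676910 to 13621485. The library labelled cortex input replicate 1 stood apart. Its 4.65% of counts in protein-coding genes was the lowest share, and mitochondrial rRNA took 71.0% of its counts against 12.7% in cortex input replicate 2. Its 12 markers of cortical progenitors and young neurons summed to 295 CPM (counts scaled to a common library size, here of protein-coding counts) against 5613 in replicate 2, with Emx1 at 0, while 7 markers of mature glia summed to 10290 against 30.0 and 7 of mature synapses to 6934 against 104. It gave the 44 genes 2425 counts in all, a median of 34 per gene, against medians of 135 to 930 in the other 11 libraries. The 12 retina-defining markers were detected in each retina library and summed to 2288 to 2807. Of 5 endothelial markers, the sum in the retina was 275 and 268 in the inputs, 1258 and 1284 with the Ythdf1 antibody. With the Ythdf2 antibody it was 752 and 778. Most of each sum came from Kdr, but Cldn5 was also higher with the Ythdf1 antibody. Raw Cldn5 counts per retina library were 101, 57 (input), 287, 210 (Ythdf1 antibody) and 49, 46 (Ythdf2 antibody). Pecam1, Cdh5 and Flt1 had at most 14 counts in any retina library. The part of these markers in the results was not tested.

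Among themselves the 44 genes differed widely in level. The per-length scale used was the deposited FPKM (fragments per kilobase and library size), rescaled to a common sum over protein-coding genes. On it the antiproliferative factor Btg2 was the most abundant in the retina inputs, at 298 and 254. Exosc3, an RNA-binding cap subunit of the exosome, followed at 79.0 and 102, and Btg1 at 82.8 and 83.4. At the other end were the exosome ring subunit Exosc7, at 6.47 and 4.17, and the exonuclease Xrn1, at 3.10 and 6.15. The FPKM tracked the length of all annotated exons of a gene, not of 1 transcript. That length was 6013 bases for Exosc7 and 18585 for Xrn1, against 1053 and 5499 in their chosen transcripts. Ranks on this scale depend on the length used. The median of the 44 was 20.9, against 10.9 for all protein-coding genes tested in the retina.

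In the P0 retina, 20 of the 44 genes differed between the Ythdf1 IP and the input (45.5%; background, 37.6% of the 14380 genes tested), called at an adjusted p under 0.05 in edgeR's quasi-likelihood test with Benjamini-Hochberg adjustment. Of these, 8 were higher in the IP (18.2%; background 17.3%) and 12 were lower (27.3%; background 20.3%). With the Ythdf2 antibody 8 were called (18.2%; background 20.2%), 3 higher (6.82%; background 9.55%) and 5 lower (11.4%; background 10.7%). All 44 genes passed the filter on low counts in both tissues. The list as a whole was therefore called about as often as the transcriptome, and the values that follow are those of single genes. The median log2 fold change of the 44 was -0.36 with Ythdf1 and -0.15 with Ythdf2, against -0.07 and 0.06 for all genes tested. Both comparisons use the same 2 inputs.

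**Figure D1:**
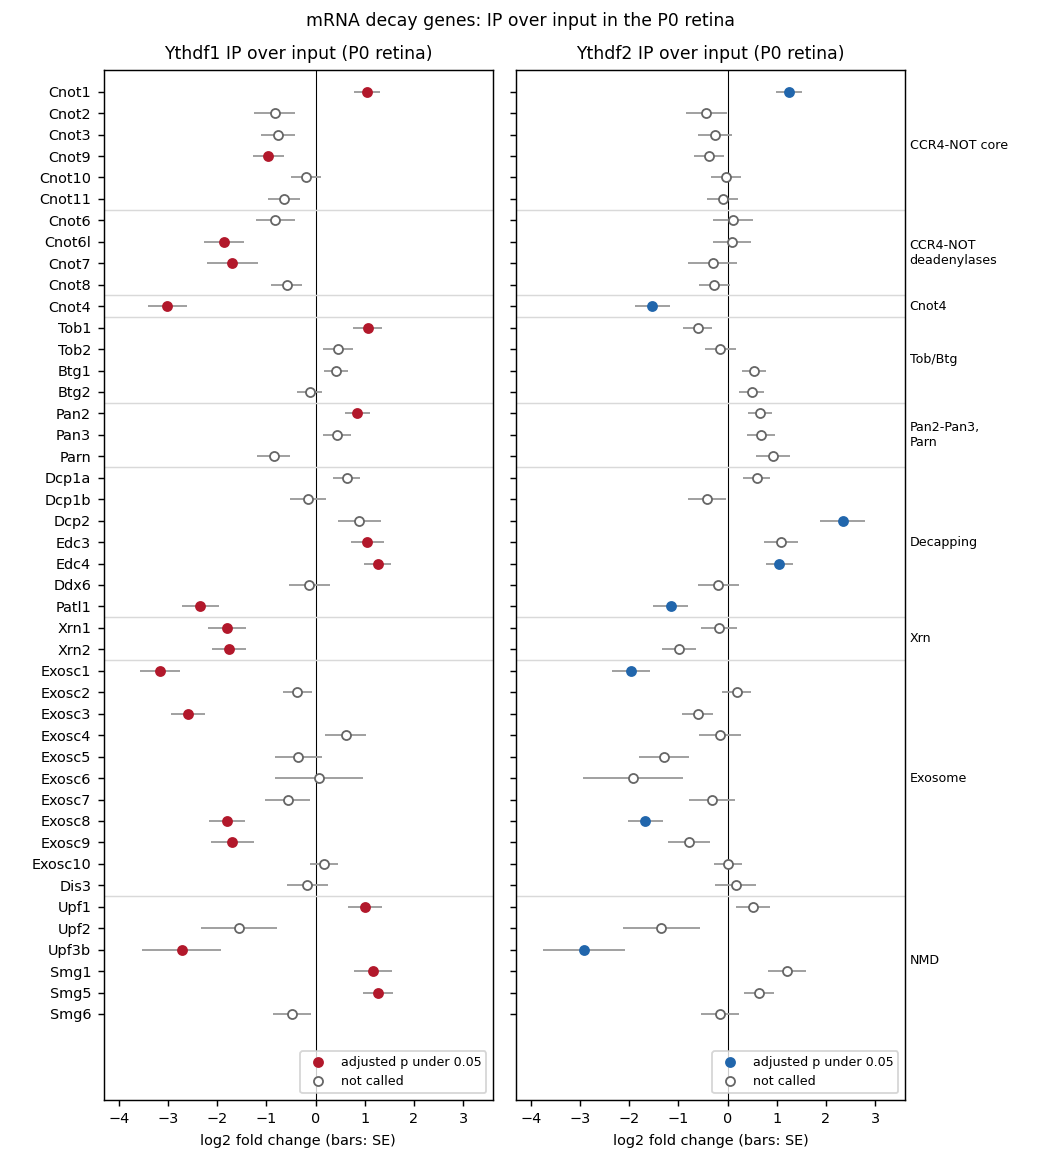
Log2 fold change of each of the 44 genes in the P0 retina IPs over the retina input (x axis; bars are standard errors), by role from top to bottom, with 2 libraries per group. Filled points passed an adjusted p of 0.05. Cnot1 and Edc4 lie to the right in both panels, and Cnot4, Patl1, Exosc1, Exosc8 and Upf3b to the left in both.

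Within the CCR4-NOT complex, the scaffold mRNA Cnot1 was recovered with both readers. Normalised CPM of Cnot1 in the retina were 16 and 20.9 in the inputs, 35.9 and 40.4 in the IPs for Ythdf1, and 44.6 and 43.3 in those for Ythdf2. All 4 IP libraries lay above both inputs. The log2 fold change was 1.05 ± 0.26 (SE, n = 2 per group; edgeR adjusted p = 0.0128) for Ythdf1 and 1.25 ± 0.26 (edgeR adjusted p = 0.0109) for Ythdf2. It was the only 1 of the 6 core subunits called higher (background 17.3% with Ythdf1 and 9.55% with Ythdf2). Cnot9, which joins the complex to partners that carry target mRNAs, was lower in the Ythdf1 IP, with 9.28 and 8.04 CPM against 20.8 and 12.9 in the inputs (log2 -0.96 ± 0.31, edgeR adjusted p = 0.0358), and had 11.6 and 14.2 CPM in the Ythdf2 IPs, which overlapped the inputs. The other 4 core subunits were not called with either antibody, with log2 fold changes from -0.83 (Cnot2, Ythdf1) to -0.03 (Cnot10, Ythdf2). Cnot2 was the lowest of the core set with Ythdf2, at 8.82 and 7.35 CPM against 6.23 and 15.6 in the inputs (log2 -0.43 ± 0.42, edgeR adjusted p = 0.51).

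The catalytic subunits were lower in the Ythdf1 IP or not called. Cnot6l, a nuclease of the CCR4 type, had 3.75 and 7.75 CPM in the inputs, 1.48 and 1.69 in the IPs for Ythdf1, and 5.82 and 6.39 in those for Ythdf2. The Ythdf1 IPs were below every other retina library (log2 -1.86 ± 0.40 over input, edgeR adjusted p = 0.0066), whereas the Ythdf2 IPs lay between the inputs. Cnot7, a nuclease of the CAF1 type, was also lower in the Ythdf1 IP (log2 -1.69 ± 0.52, edgeR adjusted p = 0.0293), although its 2 inputs differed from each other, at 3.69 and 12.5 CPM. Cnot7 kept this call in 6 of the 14 alternatives run. Its close paralog Cnot8 had 5.93 and 4.46 CPM in the inputs and 3.62 and 3.27 in the Ythdf1 IPs and was not called (log2 -0.59 ± 0.31, edgeR adjusted p = 0.162). With Ythdf2 none of the 4 was called: the values ran from -0.30 ± 0.50 (Cnot7, 7.53 and 5.60 CPM in the IPs, edgeR adjusted p = 0.717) to 0.11 ± 0.40 (Cnot6, 20.6 and 21.4 CPM against inputs of 11 and 27.9, edgeR adjusted p = 0.872).

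Cnot4, the ubiquitin ligase associated with CCR4-NOT, was the second most depleted of the 44 genes in the Ythdf1 IP. It had 6.14 and 8.69 CPM in the retina inputs, 0.729 and 1.12 in the IPs for Ythdf1, and 2.41 and 2.71 in those for Ythdf2. The 3 groups did not overlap: the inputs were highest and the Ythdf1 IPs lowest. The log2 fold change was -3.01 ± 0.39 for Ythdf1 (edgeR adjusted p = 0.000643) and -1.53 ± 0.36 for Ythdf2 (edgeR adjusted p = 0.0176).

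Of the 4 Tob and Btg genes, antiproliferative proteins that bring CCR4-NOT to mRNA, Tob1 alone was called, and with the Ythdf1 antibody alone. The background of all genes called was 37.6% with Ythdf1 and 20.2% with Ythdf2. Tob1 had 9.21 and 8.05 CPM in the inputs, 18.9 and 17 in the IPs for Ythdf1, and 4.53 and 6.78 in those for Ythdf2. The Ythdf1 IPs were above both inputs and the Ythdf2 IPs below them. The log2 fold change was 1.06 ± 0.29 with Ythdf1 (edgeR adjusted p = 0.0187) and -0.61 ± 0.29 with Ythdf2 (edgeR adjusted p = 0.173, not called). Btg1, the highest of the set with Ythdf2, had 27.3 and 27.1 CPM in the inputs and 39.3 and 40.1 in the Ythdf2 IPs (log2 0.54 ± 0.24, edgeR adjusted p = 0.142). Btg2, the lowest of the set with Ythdf1, had 51.1 and 42.9 CPM in the inputs and 41.9 and 44.6 in the Ythdf1 IPs, which overlapped.

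The other deadenylases are Pan2 with its partner Pan3, which trim long tails, and Parn. Pan2 had 7.17 and 7.77 CPM in the inputs, 13.5 and 13.4 in the IPs for Ythdf1, and 11.9 and 11.7 in those for Ythdf2, with replicates close together and no overlap with the inputs. It was called for Ythdf1 (log2 0.85 ± 0.25, edgeR adjusted p = 0.0264) and not for Ythdf2 (log2 0.66 ± 0.25, edgeR adjusted p = 0.0966). Parn had 5.28 and 4.29 CPM in the inputs, 3.25 and 2.04 in the IPs for Ythdf1, and 10.2 and 7.92 in those for Ythdf2. Neither difference of Parn from the input was called (log2 -0.85 ± 0.34, edgeR adjusted p = 0.0779; log2 0.92 ± 0.34, edgeR adjusted p = 0.0849), but the 2 IPs lay on opposite sides of the inputs.

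Among the 7 decapping genes, 2 were called higher and 1 lower with each antibody. Edc3 and Edc4 were higher with Ythdf1, Dcp2 and Edc4 were higher with Ythdf2, and Patl1 was lower with both. Over all genes tested, 17.3% were higher and 20.3% lower with Ythdf1, and 9.55% higher and 10.7% lower with Ythdf2. Dcp2, the decapping enzyme, had 3.81 and 11.7 CPM in the inputs, 13.6 and 15.2 in the IPs for Ythdf1, and 36.7 and 41.8 in those for Ythdf2. The Ythdf2 IPs were well above all other retina libraries, and the inputs differed from each other about as much as their mean. The log2 fold change of 2.34 ± 0.46 with Ythdf2 (edgeR adjusted p = 0.00808) was the highest of the 44 genes. With Ythdf1 it was 0.89 ± 0.44 and was not called (edgeR adjusted p = 0.139).

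Edc4, the scaffold that joins Dcp1 to Dcp2, had 5.46 and 4.01 CPM in the inputs, 11.8 and 10.9 in the IPs for Ythdf1, and 9.48 and 10.1 in those for Ythdf2. It was higher with both readers (log2 1.26 ± 0.28, edgeR adjusted p = 0.0081, and 1.05 ± 0.28, edgeR adjusted p = 0.0303). Edc3, another enhancer of decapping, was called higher with Ythdf1 (log2 1.05 ± 0.34, edgeR adjusted p = 0.0355) and narrowly missed the threshold with Ythdf2 (log2 1.08 ± 0.34, edgeR adjusted p = 0.0516). Edc3 shares 1284 exonic bases with Clk3 on the opposite strand, and the strand setting of the counting is not given in the sources used here, so its reads may in part be those of Clk3. Patl1, the bridge between the Lsm ring and the decapping enzyme, went the other way, with 14.4 and 7.75 CPM in the inputs, 2.28 and 2.07 in the IPs for Ythdf1, and 4.37 and 5.51 in those for Ythdf2. Every IP library was below both inputs (log2 -2.34 ± 0.37, edgeR adjusted p = 0.00161, and -1.16 ± 0.36, edgeR adjusted p = 0.048). The Ythdf2 call of Patl1, just inside the threshold, was made in 6 of the 14 alternatives run. Dcp1a, the activating partner of Dcp2, had 9.06 and 8.44 CPM in the inputs and 12.2 to 14.9 in the 4 IP libraries, and was not called with either antibody, nor were Dcp1b and the helicase Ddx6.

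**Figure D2:**
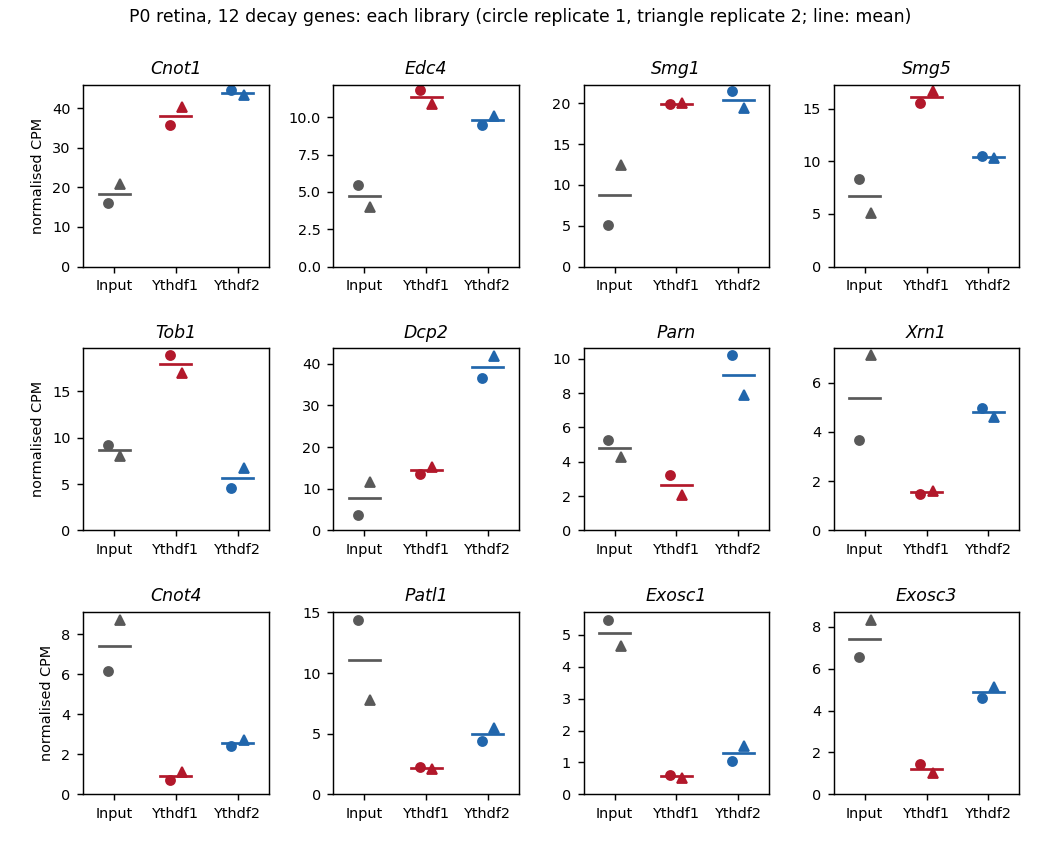
Normalised CPM (y axis, from 0) of 12 decay genes in each P0 retina library: circles replicate 1, triangles replicate 2, lines group means. Tob1 is high in the Ythdf1 IPs alone, Dcp2 and Parn are highest in the Ythdf2 IPs, and Cnot4, Patl1 and Exosc1 are below both inputs in all 4 IP libraries.

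Both 5′ to 3′ exonucleases were lower in the Ythdf1 IP (background 20.3% of all genes tested). Xrn1, the cytoplasmic enzyme, had 3.66 and 7.11 CPM in the inputs, 1.48 and 1.61 in the IPs for Ythdf1, and 4.99 and 4.60 in those for Ythdf2 (log2 -1.80 ± 0.39 with Ythdf1, edgeR adjusted p = 0.00674). Its Ythdf2 IPs lay between the inputs (log2 -0.17 ± 0.37, edgeR adjusted p = 0.789). Xrn2, the nuclear enzyme that also ends transcription, had 7.35 and 13.7 CPM in the inputs, 3.13 and 3.05 in the IPs for Ythdf1, and 5.24 and 5.34 in those for Ythdf2. All 4 IP libraries of Xrn2 were below both inputs, and the test called Ythdf1 (log2 -1.76 ± 0.35, edgeR adjusted p = 0.00453) and not Ythdf2 (log2 -0.99 ± 0.34, edgeR adjusted p = 0.0717).

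Of the 11 exosome genes, 4 were lower in the Ythdf1 IP and 2 of these also in the Ythdf2 IP, and none was called higher in either (background 20.3% and 10.7% lower, 17.3% and 9.55% higher); the 2 of 11 with Ythdf2 are near the background. Exosc1, a cap subunit, had 5.46 and 4.65 CPM in the inputs, 0.607 and 0.517 in the IPs for Ythdf1, and 1.04 and 1.53 in those for Ythdf2. Its log2 fold change of -3.16 ± 0.40 (edgeR adjusted p = 0.000641) was the lowest of the 44 genes with Ythdf1, and with Ythdf2 it was -1.97 ± 0.39 (edgeR adjusted p = 0.00797). Exosc8, a subunit of the ring, had 8.06 and 5.24 CPM in the inputs, 2.04 and 1.78 in the IPs for Ythdf1, and 2.29 and 1.88 in those for Ythdf2. Its log2 fold changes of -1.80 ± 0.36 (edgeR adjusted p = 0.00448) and -1.67 ± 0.36 (edgeR adjusted p = 0.012) were alike in size.

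Exosc3, also a cap subunit, separated the antibodies. It had 6.55 and 8.33 CPM in the inputs, 1.43 and 1.03 in the IPs for Ythdf1, and 4.62 and 5.12 in those for Ythdf2. With Ythdf1 the log2 fold change was -2.59 ± 0.34 (edgeR adjusted p = 0.00077), and with Ythdf2 it was -0.61 ± 0.32 (edgeR adjusted p = 0.209, not called). Exosc9, of the ring, had 2.36 and 4.24 CPM in the inputs and 0.923 and 1.12 in the Ythdf1 IPs (log2 -1.69 ± 0.44, edgeR adjusted p = 0.0151); it shares 510 exonic bases with Ccna2 on the opposite strand. The catalytic subunits Dis3 and Exosc10 lay near 0, with log2 fold changes from -0.17 to 0.17 over both antibodies. Exosc4 had the highest value of the exosome genes with Ythdf1, at 4.13 and 3.56 CPM against 3.22 and 1.84 in the inputs (log2 0.61 ± 0.42, edgeR adjusted p = 0.283), and Exosc2 with Ythdf2, at 6.20 and 5.38 against 5.61 and 4.60 (log2 0.18 ± 0.30, edgeR adjusted p = 0.715). Exosc6 had inputs of 4.19 and 0.223 CPM and shares 1326 exonic bases with Aars on the same strand, so its values are uncertain.

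Of the 6 NMD genes, Smg5, Smg1 and Upf1 were called higher with Ythdf1 and Upf3b lower, beside the same backgrounds. Smg5, which recruits decay enzymes to phosphorylated Upf1, had 8.32 and 5.07 CPM in the inputs, 15.5 and 16.7 in the IPs for Ythdf1, and 10.5 and 10.3 in those for Ythdf2 (log2 1.27 ± 0.30 with Ythdf1, edgeR adjusted p = 0.0105). Smg1, the kinase that phosphorylates Upf1, had 5.11 and 12.5 CPM in the inputs, 19.9 and 20.0 in the IPs for Ythdf1, and 21.5 and 19.4 in those for Ythdf2. It was called for Ythdf1 (log2 1.17 ± 0.39, edgeR adjusted p = 0.0394) and narrowly missed the threshold for Ythdf2, at a like size (log2 1.21 ± 0.39, edgeR adjusted p = 0.0558). Upf1, the central helicase, was called with Ythdf1 (log2 1.00 ± 0.34, edgeR adjusted p = 0.0452). Of the 14 alternatives run, the Ythdf1 call of Smg1 was made in 6 and that of Upf1 in 7.

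Upf3b, the link to the exon junction complex, was lower with both antibodies. It had 2.30 and 8.11 CPM in the inputs, 0.219 and 1.38 in the IPs for Ythdf1, and 0.624 and 0.744 in those for Ythdf2. The log2 fold changes were -2.72 ± 0.80 (edgeR adjusted p = 0.0246) and -2.92 ± 0.83 (edgeR adjusted p = 0.0361), with the widest errors of the called genes. Upf2 and Smg6 were not called.

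These counts rest on few libraries. The counts below stand without the share of all genes called in the same fit. They show how far the calls moved, not a trait of the list. For Ythdf1, leaving out either Ythdf1 IP left 0 genes higher and 6 lower, leaving out Ythdf2 IP replicate 1 or 2, which share the estimate of spread, left 3 and 4 higher, and leaving out input replicate 1 gave 13 higher. For Ythdf2, leaving out either Ythdf2 IP left 0 called, and leaving out input replicate 1 or 2 gave 12 and 10 higher and 10 and 9 lower. With scaling and tests over protein-coding genes alone, the Ythdf1 split was 5 higher and 13 lower. A fit of all 12 libraries, which brings in the library labelled cortex input replicate 1, called 3 genes lower for Ythdf1 (Cnot4, Patl1 and Cnot6l) and 0 for Ythdf2. Every value called in the retina kept its sign in the 14 alternatives run.

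The antibodies were also compared directly, IP against IP, in the retina. Of the 44 genes 6 were called (13.6%; background 9.13%). Tob1 was higher in the Ythdf1 IP (2.27% of the list; background 2.57%), and Cnot6l, Cnot4, Parn, Xrn1 and Exosc3 were lower (11.4%; background 6.56%). The log2 difference of Ythdf1 IP minus Ythdf2 IP was 1.67 ± 0.30 for Tob1 (edgeR adjusted p = 0.0112). It was -1.97 ± 0.34 for Exosc3 (edgeR adjusted p = 0.01) and -1.94 ± 0.40 for Cnot6l (edgeR adjusted p = 0.0202). Parn differed by -1.77 ± 0.35 (edgeR adjusted p = 0.0166), Xrn1 by -1.63 ± 0.39 (edgeR adjusted p = 0.0341) and Cnot4 by -1.47 ± 0.38 (edgeR adjusted p = 0.044). The difference of Dcp2, -1.45 ± 0.44, did not pass (edgeR adjusted p = 0.0742). As above, the counts that follow stand without the share of all genes called in the same fit. Leaving out any 1 of the 4 IP libraries left none of the list called, as did the fit of all 12 libraries, and leaving out either input gave 4 higher and 14 lower.

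Base composition moved with this difference. Across the 44 genes, the log2 difference between the IPs had a Spearman correlation of 0.55 with the GC content of the transcript, and across the 12400 protein-coding genes 0.45. For Ythdf1 over input the correlation with GC content was 0.42 in the 44 genes and 0.36 in the protein-coding genes. For Ythdf2 over input it was 0.09 and 0.06. The retina inputs also differed by GC content: replicate 2 minus replicate 1 correlated at -0.83 across the 44 genes and at -0.59 across the protein-coding genes. These are descriptions across genes of the same libraries, which are not independent replicates. In an alternative chosen after seeing the data, a GC trend was removed from each library. Between the antibodies that fit called 5 of the 44 genes in place of 6, with 4 in common: Tob1, Parn, Xrn1 and Exosc3. Its share of all genes for this comparison is not given here. Cnot6l (log2 difference -0.72) and Cnot4 (-0.51) were no longer called. In the Ythdf1 comparison with the input the GC fit called 23 of the 44 genes in place of 20, with 16 in common, and 5229 of 12449 genes in all. The 4 lost were Cnot6l (log2 -0.49), Cnot7 (-0.60), Pan2 (0.52) and Upf1 (0.51). In the Ythdf2 comparison it called 12 in place of 8, all 8 among them, and 3765 genes in all. Whether base composition accounts for the remaining differences was not tested.

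**Figure D3:**
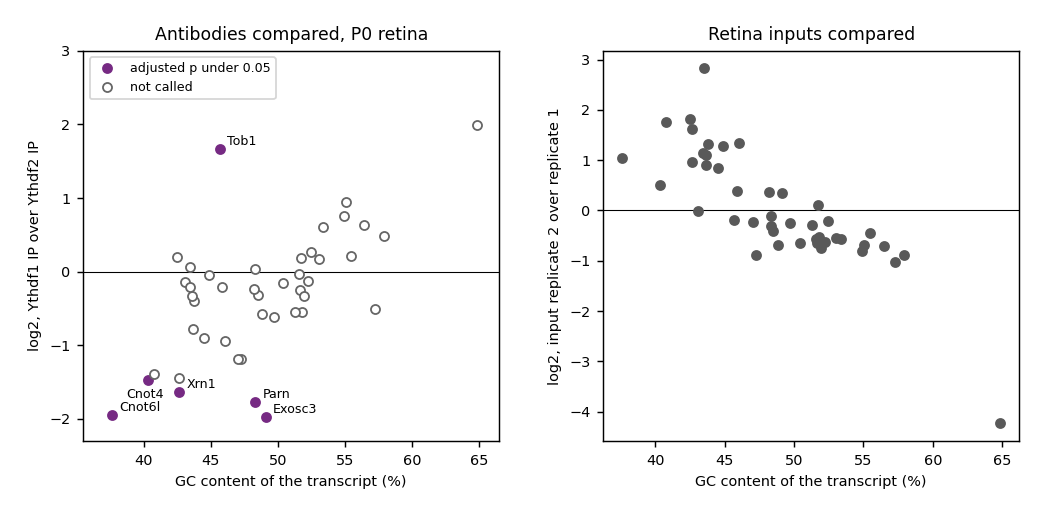
GC content of the transcript (x axis, percent) of the 44 genes against the log2 difference of Ythdf1 IP and Ythdf2 IP in the P0 retina (left; filled, adjusted p under 0.05) and of input replicate 2 and replicate 1 (right). The left panel slopes upward (Spearman 0.55), with Tob1 above the trend, and the right panel slopes downward (Spearman -0.83).

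Transcript length was a further feature shared with the enrichment. The 8 genes higher with Ythdf1 had a median transcript of 4632 bases and the 12 lower ones 3125, against 2880 for the 24 not called and 3158 for all protein-coding genes tested. Smg1, at 15557 bases the longest of the 44, was among the higher ones, and Exosc1, at 1018 the shortest, among the lower ones. Across the 44 genes the Spearman correlation of length with the log2 fold change was 0.38 for Ythdf1 and 0.60 for Ythdf2, and across the 12400 protein-coding genes 0.37 and 0.48. The number of GGACT per transcript, which grows with length, gave 0.53 and 0.50 in the 44 genes and 0.38 and 0.39 in all. The number per kilobase gave 0.27 and 0.08, against 0.17 and 0.07. The retina inputs differed by length too: replicate 2 minus replicate 1 correlated with transcript length at 0.29 across the 44 genes and at 0.34 across the protein-coding genes. Length and motif number were not separated by a test.

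**Figure D4:**
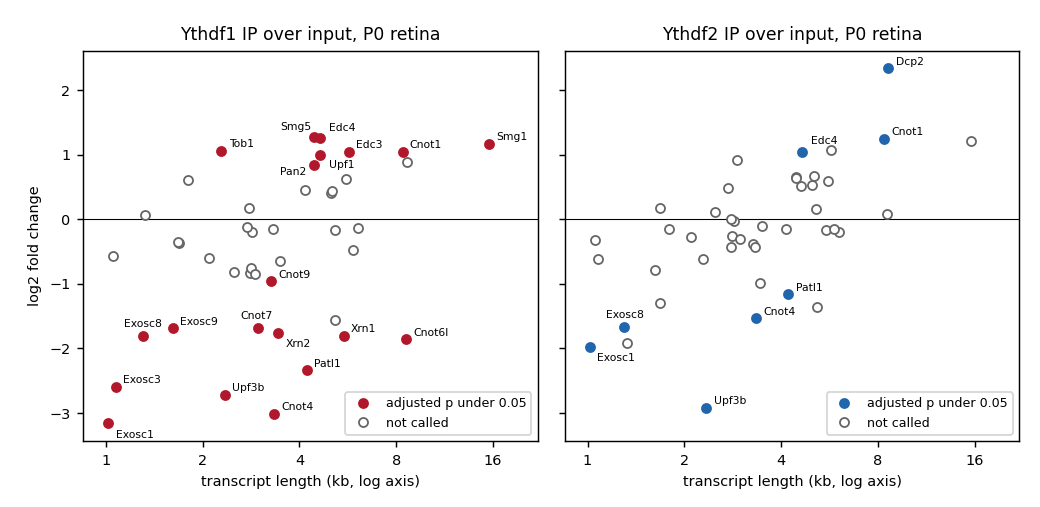
Transcript length (x axis, kilobases, log axis) against log2 fold change over the P0 retina input for the 44 genes, with Ythdf1 on the left and Ythdf2 on the right; filled points passed an adjusted p of 0.05. The slope is upward in both panels (Spearman 0.38 and 0.60); Cnot6l, at 8564 bases, is a long transcript below 0 with Ythdf1.

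The summed share of the 44 genes did not follow their median. As CPM over protein-coding counts, they summed to 3174 and 3620 in the retina inputs, 4124 and 4290 in the IPs for Ythdf1, and 5239 and 5229 in those for Ythdf2, although the median gene was lower in the IPs. The 13 mitochondrially encoded mRNAs took 12.9% and 22.6% of protein-coding counts in the inputs and under 1% in the IPs. Without them the shares were 3645 and 4675 in the inputs, 4133 and 4300 with Ythdf1, between the inputs, and 5287 and 5278 with Ythdf2, above both.

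A wider list of 81 genes of the same pathways that are not among the 44 had 78 tested in the retina. Of these, 12 were higher and 22 lower with Ythdf1, and 10 higher and 18 lower with Ythdf2. Over all genes tested, 17.3% were higher and 20.3% lower with Ythdf1, and 9.55% higher and 10.7% lower with Ythdf2, and the same backgrounds hold for the subsets that follow. The genes of the Lsm1 to Lsm7 ring, which binds oligoadenylated ends and Patl1, were lower in 6 of 7 cases with either antibody. The exception was Lsm1, with a log2 fold change of 0.03 ± 0.63 for Ythdf1 (edgeR adjusted p = 0.975). For Ythdf2 that of Lsm1 was -0.55 ± 0.65 (edgeR adjusted p = 0.593). Lsm5 had 13.6 and 13.7 CPM in the inputs, 0.146 and 0.517 in the IPs for Ythdf1, and 0.541 and 1.18 in those for Ythdf2 (log2 -5.38 ± 0.58, edgeR adjusted p = 0.0003, and -3.98 ± 0.54, edgeR adjusted p = 0.00133). Magoh, of the exon junction complex, had 37.2 and 29.0 CPM in the inputs and 1.19 and 0.862 in the Ythdf1 IPs (log2 -5.00 ± 0.38, edgeR adjusted p = 8.7e-05). Nbas, an NMD factor, was higher, with 2.07 and 1.92 CPM in the inputs and 13.9 and 12 in the Ythdf1 IPs (log2 2.69 ± 0.29, edgeR adjusted p = 0.000292). Of 10 genes of the microRNA pathway, 4 were called higher with Ythdf1 and 5 with Ythdf2, and 0 lower with either.

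In the E12.5 cortex, none of the 44 genes passed the test in either IP or between the IPs (background 0.0% of 17611 genes). At an unadjusted p under 0.05, 1 gene passed for Ythdf1, 1 for Ythdf2 and 0 between the antibodies, against 1539, 1983 and 316 of the 17611 genes, and DESeq2 also called none of the 44. The smallest p with Ythdf1 was that of Exosc5, with 0.439 and 0.654 CPM in the inputs and 1.24 and 3.93 in the IPs (log2 2.17 ± 0.85, edgeR adjusted p = 0.568). Exosc5 had 3 counts in the library labelled cortex input replicate 1 and shares 355 exonic bases with Tmem91 on the opposite strand. Upf1 (log2 1.23 ± 0.56, edgeR adjusted p = 0.569), Edc4 (0.97 ± 0.55, edgeR adjusted p = 0.595) and Cnot6l (-0.92 ± 0.55, edgeR adjusted p = 0.621) followed. The smallest p with Ythdf2 was that of Edc4, with 4.54 and 6.70 CPM in the inputs and 14.1 and 14.5 in the IPs (log2 1.34 ± 0.55, edgeR adjusted p = 0.438). Dcp1a (log2 1.47 ± 0.67, edgeR adjusted p = 0.453), Smg5 (1.23 ± 0.57, edgeR adjusted p = 0.456) and Exosc5 (1.78 ± 0.83, edgeR adjusted p = 0.458) followed. Between the antibodies the smallest p was that of Cnot4, at 12.3 and 13.2 CPM with Ythdf1 and 6.92 and 8.10 with Ythdf2 (log2 0.76 ± 0.53, edgeR adjusted p = 1.0), before Dcp2 (-0.81 ± 0.65), Cnot3 (1.05 ± 1.06) and Smg5 (-0.54 ± 0.56), all at an edgeR adjusted p of 1.0.

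The 2 cortex inputs differed, and the counts against the input changed when either was left out; between the IPs 0 genes of the list were called in both cases. Cnot1 had 20.5 CPM in the library labelled input replicate 1 and 106 in replicate 2, beside 93.7 to 125 in the 4 IPs. Exosc1 had 0 counts in the first, which allows up to 0.439 CPM, and 8.39 CPM in the second, with 1.45 to 3.93 in the IPs. Without the library labelled cortex input replicate 1, 4 genes were called for Ythdf1 (background 5.13%) and 6 for Ythdf2 (background 9.41%), with the remaining input assumed to vary like the IP groups. For Ythdf1 these were Tob2, higher (log2 1.83 ± 0.51), and Exosc3 (-2.48 ± 0.47), Xrn2 (-1.72 ± 0.43) and Upf3b (-1.62 ± 0.46), lower. For Ythdf2 they were all lower: Exosc3 (-2.87 ± 0.47), Exosc1 (-2.34 ± 0.47), Exosc9 (-1.87 ± 0.45), Exosc8 (-1.86 ± 0.50), Xrn2 (-1.66 ± 0.42) and Patl1 (-1.29 ± 0.41). Without cortex input replicate 2 instead, 16 and 22 genes were higher (background 17.2% and 18.8%) and none lower (background 12.3% and 13.6%), where the median of all genes itself stood at 0.70 and 0.77.

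**Figure D5:**
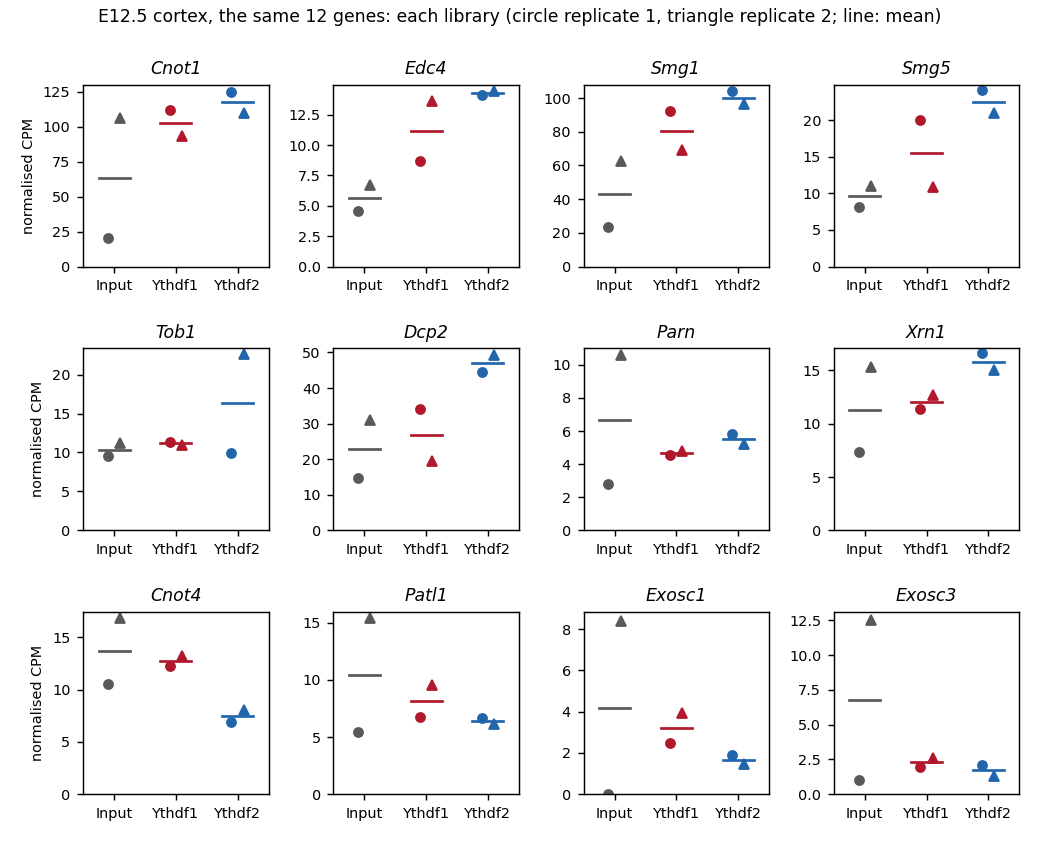
Normalised CPM (y axis, from 0) of the same 12 decay genes in each E12.5 cortex library: circles replicate 1, triangles replicate 2, lines group means. The input circle, the library that does not match its label, lies below the input triangle in all 12 panels, for Cnot1 at 20.5 against 106.

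The log2 fold changes of the 44 genes in the cortex and in the retina come from separate libraries and can be set side by side. Their Spearman correlation was 0.61 for Ythdf1 and 0.58 for Ythdf2, against 0.31 and 0.34 over the 12124 protein-coding genes tested in both. Without the library labelled cortex input replicate 1 it was 0.66 and 0.57, against 0.46 and 0.48. The signs were the same in 31 of 44 genes for Ythdf1 (70.5%, against 62.4% of protein-coding genes) and 27 for Ythdf2 (61.4%, against 63.9%). All are descriptions across genes that share their libraries.

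The difference between tissues was tested in all 12 libraries, as the retina fold change minus that of the cortex. No gene of the list was called (background 0.00542% of 18458 genes for Ythdf1 and 0.0325% for Ythdf2); 4 and 1 had an unadjusted p under 0.05, against 3064 and 2080 of all genes, and DESeq2 called 1 for Ythdf1 and 0 for Ythdf2. For Ythdf1 the smallest p was that of Cnot4 (log2 -2.79 ± 0.63, edgeR adjusted p = 0.125), which was depleted in the retina Ythdf1 IPs and had 12.3 and 13.2 CPM against 10.5 and 16.9 in the cortex inputs. In the same fit of all 12 libraries, Xrn1 (-1.78 ± 0.68, edgeR adjusted p = 0.24), Patl1 (-1.84 ± 0.73, edgeR adjusted p = 0.253) and Exosc5 (-2.37 ± 0.97, edgeR adjusted p = 0.262) followed. When cortex input replicate 1 was left out, the Cnot4 difference was -2.48 ± 0.55, in a fit with 1 cortex input. For Ythdf2 the smallest p was that of Exosc5 (-3.06 ± 0.99, edgeR adjusted p = 0.336), ahead of Tob1 (-1.25 ± 0.64, edgeR adjusted p = 0.488), Upf3b (-2.63 ± 1.51, edgeR adjusted p = 0.54) and Parn (1.24 ± 0.78, edgeR adjusted p = 0.58). Without cortex input replicate 2 instead, 16 genes were lower for Ythdf1 and 14 for Ythdf2 (background 16.9% and 14.0%) and none higher (background 8.68% and 7.59%), where the median of all genes stood at -1.20 and -1.15.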

How the data were processed

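Per the labels' protocols, dissociated cortex and retina went through RIP with the EZ-Magna kit, and TruSeq stranded libraries were made from 100 ng of input or eluted RNA. STAR 2.5, HTSeq and GRCm38 are named in the submitters' processing notes; how strand was treated, and which annotation, is not given in the sources used here. The authors deposited raw read counts per gene and FPKM for the same 12 libraries. Of 52550 genes, 52403 matched GENCODE M21, which gave symbols, transcripts and 1-based GRCm38 coordinates.

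The counts were tested with edgeR 4.0.16 (limma 3.58.1, R 4.3.3; filterByExpr with minimum count 10 and total 15, TMM scaling, robust quasi-likelihood fit, 1 mean per group). Retina comparisons used the 6 retina libraries and cortex comparisons the 6 cortex libraries, with 3 residual degrees of freedom each; the differences between tissues used all 12, with 6. Tests were two-sided, with Benjamini-Hochberg adjustment over all genes tested in each of 8 comparisons, and an adjusted p under 0.05 was a call. Errors are standard errors, taken as the fold change over the square root of F. Normalised CPM uses each tissue's own scaling, so its levels are not compared between tissues; 3 counts equal 0.036 to 0.439 CPM. Such floors cover counting error alone, because the reads carry no molecular identifiers and need not be independent molecules. Alternatives were DESeq2 1.42.0 size factors and Wald test, protein-coding genes alone, no filter, limma-trend on log2(FPKM + 1), a replicate block, all 12 libraries in 1 fit, each library left out, and, added after seeing the data, a GC offset.

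Members and lists were chosen with earlier results of these data known. Any of the 44 genes could be named. Full values were for up to 12 called genes of smallest p in each retina IP against input and for the highest and lowest of each role. Elsewhere they were for the called genes (up to 6) or the 4 of smallest p. Of the other decay genes, the 4 called ones of smallest p could be named, and Lsm1 is named as the exception in its ring.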

Additional observations from a re-analysis of the deposited data

How the results depend on the processing

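Of the 34 calls of single genes in the retina, recomputed under 14 alternatives (476 values), 330 stayed called, 146 lost the call and none changed sign. Counts below are of the 44 genes called, higher then lower. They, and the ranges with each library left out, stand without the share of all genes called in the same fit. They describe how the fits differ, not a trait of the list. For Ythdf1 over input (8 and 12), protein-coding genes alone gave 5 and 13, limma-trend on log2(FPKM + 1) gave 7 and 6, the GC offset 9 and 14, and all 12 libraries in 1 fit gave 0 and 3. For Ythdf2 over input (3 and 5), limma-trend gave 5 and 3, the GC offset, chosen after seeing the data, 5 and 7, and all 12 libraries in 1 fit 0 and 0. For Ythdf1 IP against Ythdf2 IP (1 and 5), limma-trend gave 1 and 3 and all 12 libraries 0 and 0. The fit of all 12 libraries includes the library labelled cortex input replicate 1 in the spread; apart from that, the cause of these moves was not tested. DESeq2's Wald test called 1 gene in the tissue difference for Ythdf1, where edgeR called 0.

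With each library left out in turn, Ythdf1 over input ranged from 0 to 13 higher and 6 to 15 lower, Ythdf2 over input from 0 to 12 and 0 to 10, and the antibody difference from 0 to 4 and 0 to 14. The high ends came from leaving out an input and the low ends from leaving out an IP library. In the cortex the counts ranged from 0 to 16 for Ythdf1, 0 to 22 for Ythdf2 and 0 to 0 between antibodies, and in the tissue differences from 0 to 16 and 0 to 14; the high ends are without cortex input replicate 2.

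Replicate numbers are shared between groups, but samples of the same number did not deviate together: the correlation of their deviations was 0.096, -0.03 and -0.012 in the retina and 0.035, 0.065 and -0.027 in the cortex. With the replicate block, Ythdf1 over input gave 8 and 12, Ythdf2 4 and 4, with Patl1 no longer called, and the antibody difference 1 and 6.

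Depth limits the low genes: the 44 had median counts of 135 to 263 per retina library, and 34 in the library labelled cortex input replicate 1.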
